A study of Mus musculus with 9 samples.

Results

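The gene set taken here holds the nuclear genes of complex III and of ATP synthase, the cytochrome c that carries electrons away from complex III, and genes that help to assemble complex III, ATP synthase and cytochrome oxidase. Members were chosen by symbol in the deposited table: names starting with Uqcr, Uqcc, Atp5 or Atpaf, the names Cox10 to Cox19, and *Cox20*, *Cyc1*, *Cycs*, *Bcs1l*, *Surf1*, *Sco1* and *Sco2*, leaving out names that contain -ps. The rule found 45 of the 48820 genes of the table, of which 27 encode subunits or cytochrome c (9 of complex III, 17 of ATP synthase, and *Cycs*) and 18 encode assembly factors (4 for complex III, 2 for ATP synthase and 12 for cytochrome oxidase). *Uqcrc1* stands in the table under 2 identifiers with equal values in all 9 hearts and was counted once.

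The study asked how gene expression changes in the mouse heart around birth. Total RNA of whole hearts was sequenced from C57BL/6J mice of the genotype WT that had received no treatment, 3 biological replicates each at E18.5d (before birth), P1d and P7d (days after birth), and all animals were labelled male. Values are FPKM, fragments per kilobase of transcript and per 1e6 mapped fragments, so levels of different genes can be set side by side per length. The steps between low values put the depth of the 9 hearts at 25.0 to 45.75 times 1e6 fragments. Depth differed by stage, with 25.0 to 38.5 at E18.5d, 27.75 to 29.75 at P1d and 37.0 to 45.75 at P7d.

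In 4 hearts the data go against the sex label. *Xist*, the RNA of the inactive X chromosome, stood at 82.6 and 97.0 FPKM in E18.5d replicates 1 and 3 and at 58.0 and 70.0 FPKM in P7d replicates 2 and 3, where 4 Y-linked genes summed to 0, while the other 5 hearts had at most 0.11 FPKM of *Xist*. The 5 hearts left without them hold 1 heart each at E18.5d and P7d, assumed to vary like the 3 P1d hearts. Genes of airway and lung, 6 in the list, summed to 99.8 and 281 FPKM in E18.5d replicates 1 and 2 and to 567 FPKM in P1d replicate 1, against at most 3.29 FPKM in the others; *Scgb3a2* was the most abundant of them in the E18.5d hearts named and *Scgb3a1* in the P1d heart. Results without these hearts are given with the counts.

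Complex III takes electrons from ubiquinol, passes them through cytochrome b, the Rieske protein and cytochrome c1 to cytochrome c, and moves protons across the inner mitochondrial membrane. ATP synthase lets the protons back through a rotating ring of c subunits in its membrane part Fo, and the turning shaft drives ATP formation in the F1 head. Assembly factors insert metal centres and join subunits but are not part of the finished enzymes; the heart, which beats without rest, is among the tissues richest in these complexes.

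All 45 members had a mean of at least 1 FPKM and entered the fit with 13618 genes. They made up 4.46% to 4.61% of the FPKM of protein-coding nuclear genes in the E18.5d hearts, 4.76% to 5.07% at P1d and 4.54% to 4.90% at P7d. Subunits were far more abundant than assembly factors per length: subunit means over the 9 hearts ran from 249 FPKM for *Atp5g2* to 4054 FPKM for *Atp5b*, while assembly factors ran from 1.92 FPKM for *Sco2* to 157 FPKM for *Cox17*. Neither the fit nor the counts can tell fewer cells of a type from less RNA per cell, since whole hearts were sequenced.

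Between E18.5d and P7d the members did not move as a block. On the deposited scale, 4 of the 45 were higher at P7d and 15 were lower (adjusted p under 0.05, limma), beside 12.5% and 36.9% of all genes tested, so the 15 lower calls are near the share of all genes. The median log2 change was −0.08 for the members and −0.17 for all genes. Scaling the columns by their median of ratios moved the median of all genes to −0.02, and the split of the members then turned to 13 higher and 6 lower, beside 21.3% and 20.9% of all genes. All 4 higher members of the deposited scale were also higher on this scale, and its 6 lower members were all among the 15. A change said below to have passed did so on both scales unless the text says otherwise, and a change that did not pass can differ in sign between them. Rescaling the columns to equal sums, also cited below, rests mostly on small RNAs. In each heart 5 such genes held 53.3% to 62.3% of the FPKM sum, with the highest share in P1d replicate 2. The factor of that heart was 1.22 by equal sums and 1.015 by median of ratios.

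At P1d against E18.5d, 6 members were higher and 11 lower, beside 18.4% and 27.6% of all genes tested, with a median change of 0.01 against −0.06 for all genes. Median-of-ratios scaling gave 8 higher and 8 lower, beside 23.2% and 22.9% of all genes. From P1d to P7d, 4 members were higher and 12 lower, beside 15.5% and 28.6%, and with median of ratios 7 and 6, beside 21.9% and 19.8%. The 3 comparisons share hearts and are not independent of each other.

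Without the 4 hearts that go against the sex label, 1 heart each is left at E18.5d and P7d. Every call of a member was lost in these 5 hearts other than that of *Bcs1l*, lower at P1d against E18.5d. Few genes of any kind were called there, and their shares stand with the dependence on processing below. The sign of the change was the same as with 9 hearts for each of the 19 members called at P7d against E18.5d, the 17 at P1d against E18.5d and the 16 at P7d against P1d. Without the 3 hearts rich in airway RNA, 1 member was higher and 6 were lower at P7d against E18.5d, 2 were higher and 3 lower at P1d against E18.5d, and 2 were higher and 10 lower at P7d against P1d. Those called against E18.5d were *Uqcrc1*, *Uqcrb*, *Atp5mpl*, *Atp5j2*, *Atp5k*, *Cox20* and *Cox16* at P7d and *Uqcrc1*, *Atp5a1*, *Uqcc1*, *Bcs1l* and *Cycs* at P1d. Of all genes 7.27% and 16.6%, 7.48% and 10.7%, and 10.3% and 18.9% were called in these comparisons. That fit keeps a lone E18.5d heart, with 2 hearts left for P1d and 3 for P7d, so in its comparisons with E18.5d the spread comes from the later stages alone; the part of airway RNA in the other calls was not tested.

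**Figure D1:**
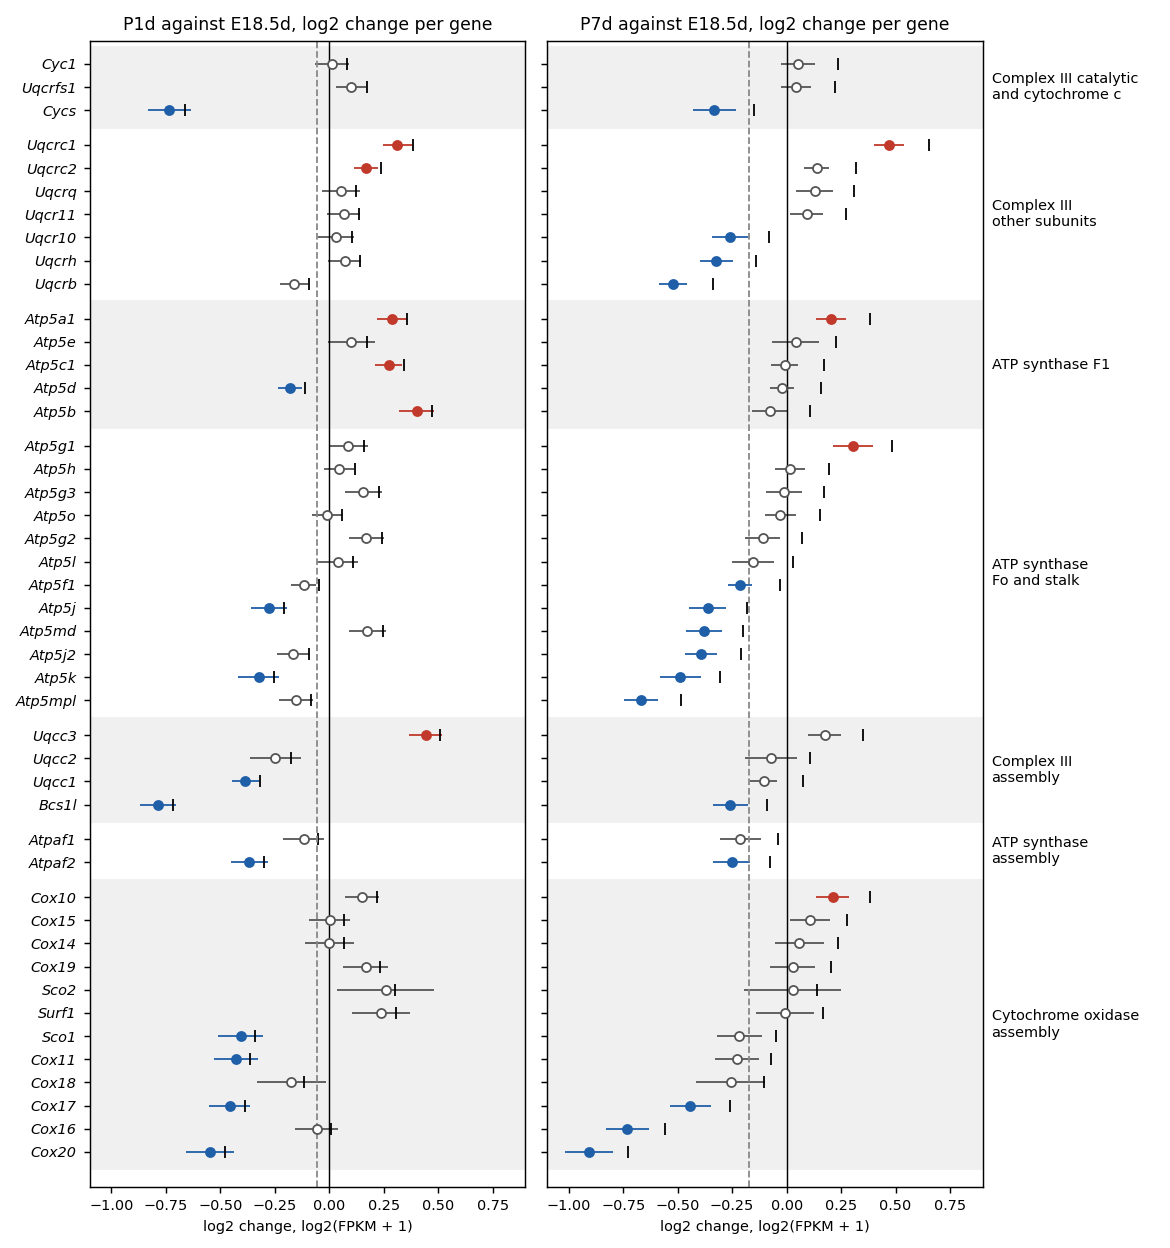
Log2 change of each member on the log2(FPKM + 1) scale, by role, at P1d (left) and P7d (right) against E18.5d, 3 hearts a stage. Points with bars give the limma estimate and its standard error on the deposited scale, filled red (higher) or blue (lower) where the adjusted p was under 0.05; short black strokes give the estimate with median of ratios, and the dashed line is the median of all genes tested. *Bcs1l* and *Cycs* lie far to the left at P1d, while *Cox20*, *Cox16* and *Atp5mpl* are the lowest 3 at P7d.

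Neither of the nuclear catalytic genes of complex III, *Cyc1* and *Uqcrfs1*, passed on the deposited scale. *Cyc1* encodes cytochrome c1, which hands electrons to cytochrome c. Its FPKM was 313, 324 and 314 in the E18.5d hearts, 306, 326 and 327 at P1d, and 339, 361 and 290.1 at P7d. The stages overlapped, and its change at P7d against E18.5d was 0.05 ± 0.08 (log2, SE; adjusted p = 0.61). With median of ratios it was 0.23 and passed.

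*Cycs*, the gene of the cytochrome c of somatic tissues, showed a dip after birth. Its FPKM was 198, 197 and 194 in the E18.5d hearts, 113, 107 and 135 at P1d, and 139, 172 and 159 at P7d. All P1d hearts lay below all hearts of the other stages, and the P7d hearts lay between them with no overlap. The log2 change was −0.73 ± 0.10 at P1d against E18.5d (adjusted p = 0.000334), and the rise from P1d to P7d was 0.40 ± 0.10 (adjusted p = 0.00954). The call of that rise was lost with the *Xist* covariate and without the airway-rich hearts. The remaining difference at P7d against E18.5d, −0.33 ± 0.10 (adjusted p = 0.0199), became −0.15 with median of ratios and no longer passed; it was also lost when E18.5d replicate 1 (adjusted p = 0.0534), E18.5d replicate 2 (0.0537) or P7d replicate 1 (0.0725) was left out. The ratio of *Cycs* to *Cyc1* FPKM, which no rescaling of whole columns changes, averaged 0.620 ± 0.0126 before birth, then 0.370 ± 0.0440 on P1d and 0.478 ± 0.0691 on P7d (SD, n = 3). Of the 9 ratios, the lowest at E18.5d (0.607) was above the highest after birth (0.547).

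Among the other subunits of complex III, *Uqcrc1* was higher and *Uqcrb* lower at P7d against E18.5d on both scales. *Uqcrc1* encodes core protein 1 on the matrix side of the complex. Its FPKM was 255, 258 and 234 in the E18.5d hearts, 302, 331 and 297 at P1d, and 338, 366 and 332 at P7d. The 3 stages did not overlap and rose in order, with a log2 change at P7d against E18.5d of 0.47 ± 0.07 (adjusted p = 0.000443) and at P1d against E18.5d of 0.31 ± 0.07 (adjusted p = 0.00452). With columns set to equal sums the P1d change was 0.14 and did not pass. Its partner *Uqcrc2*, core protein 2, was higher at P1d by 0.17 ± 0.06 (adjusted p = 0.0324, lost when any of 5 hearts was left out, E18.5d replicates 2 and 3, P1d replicates 1 and 3 and P7d replicate 1, with adjusted p from 0.0503 to 0.103). That call was also lost with the 2 stages alone, without trend, with the *Xist* covariate and with equal sums, where the change was −0.01. At P7d it had 0.14 ± 0.06 (adjusted p = 0.0653), which passed with median of ratios.

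*Uqcrb*, a small subunit that binds near the ubiquinone site, went the other way. Its FPKM was 643, 647 and 689 in the E18.5d hearts, 552, 603 and 613 at P1d, and 434, 479 and 465 at P7d. Every P7d heart lay below every P1d heart, and every P1d heart below every E18.5d heart. The log2 change at P7d against E18.5d was −0.52 ± 0.07 (adjusted p = 0.000201), and −0.23, still passing, with quantile normalization. *Uqcrb* to *Uqcrc1*, 2 subunits of the same complex, had ratios averaging 2.65 ± 0.248 before birth, 1.91 ± 0.139 on P1d and 1.33 ± 0.0616 on P7d (SD, n = 3), with no overlap of the stages.

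*Uqcrh*, the hinge protein that docks cytochrome c1 to cytochrome c, kept its level until P1d. Its FPKM was 1217, 1141 and 1120.0 in the E18.5d hearts, 1121, 1284 and 1251 at P1d, and 941, 973 and 868 at P7d. The P7d hearts lay below all the others. The log2 change at P7d against E18.5d was −0.32 ± 0.07 (adjusted p = 0.00584) on the deposited scale, −0.14 with median of ratios, which did not pass, and 0.01 with quantile normalization, where the sign turned. *Uqcr10*, another small subunit, was lower at P7d by −0.26 on the deposited scale and passed neither with median of ratios (−0.08) nor with quantile normalization (0.05). The call was lost as well without filter and without the E18.5d hearts numbered 1 (adjusted p = 0.0831) or 2 (0.0679) and the P7d heart numbered 3 (0.0914). The subunits *Uqcr11*, *Uqcrq* and the Rieske protein gene *Uqcrfs1* passed at P7d, as higher, only with median of ratios, protein-coding nuclear sums or quantile normalization; their deposited means at E18.5d and P7d were 980.0 and 1047 FPKM, 331 and 362 FPKM, and 252 and 259 FPKM.

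In the F1 head of ATP synthase, *Atp5b* was highest at P1d. It encodes the catalytic beta subunit and was the most abundant member. Its FPKM was 3944, 3649 and 3565 in the E18.5d hearts, 4856, 5236 and 4649 at P1d, and 3693, 3598 and 3294 at P7d. All P1d hearts lay above all others, and the E18.5d and P7d hearts overlapped. The log2 change was 0.40 ± 0.08 at P1d against E18.5d (adjusted p = 0.00315) and −0.48 ± 0.08 at P7d against P1d (adjusted p = 0.0014); with quantile normalization, which sets the columns to equal distributions, they were 0.03 and −0.23 and neither passed.

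*Atp5c1*, the gamma subunit that forms the central shaft, had 849.8, 808 and 776 FPKM in the E18.5d hearts, 951, 1033 and 958 at P1d, and 810.4, 832 and 776 at P7d. Its P1d hearts again stood above all others. It was higher at P1d by 0.27 ± 0.06 (adjusted p = 0.00615) and lower at P7d against P1d by −0.28 ± 0.06 (adjusted p = 0.00574), the latter −0.17 and not passing with median of ratios and turned to 0.09 with quantile normalization. With equal sums the P1d change was 0.10 and neither change passed.

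*Atp5a1*, the alpha subunit, which alternates with beta around the shaft, had 1468, 1419 and 1303 FPKM in the E18.5d hearts, 1642, 1756 and 1710.0 at P1d, and 1624, 1659.7 and 1535 at P7d. The P7d hearts overlapped those of P1d and lay above those of E18.5d. Its log2 change was 0.29 ± 0.07 at P1d (adjusted p = 0.0072) and 0.20 ± 0.07 at P7d (adjusted p = 0.0324) against E18.5d. The P1d change was 0.11 with equal sums and also 0.11 with quantile normalization, passing in neither, nor did it pass with the *Xist* covariate. The P7d call was lost with equal sums (0.16), without filter and with the *Xist* covariate, and without the E18.5d hearts numbered 2 or 3 and without the P7d hearts numbered 1 or 2 (adjusted p from 0.0705 to 0.105). The ratio of *Atp5b* to *Atp5a1* averaged 2.66 ± 0.0843 before birth, 2.89 ± 0.145 on P1d and 2.20 ± 0.0690 on P7d (SD, n = 3), and all P7d ratios lay below all earlier ones.

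The small F1 subunits moved less. *Atp5d*, the delta subunit at the foot of the shaft, was lower at P1d by −0.18 (adjusted p = 0.0258), which did not pass with median of ratios or quantile normalization and was lost without E18.5d hearts 1 or 2 or P1d hearts 1 or 2 (adjusted p from 0.0572 to 0.103). It was higher again at P7d against P1d by 0.16 (adjusted p = 0.0445). That call was lost with equal sums, without filter, without trend, with the 2 stages alone, with the replicate block, with the *Xist* covariate and without the airway-rich hearts. It was also lost without E18.5d replicates 1 or 2, P1d replicates 1 or 2 or P7d replicates 2 or 3 (adjusted p from 0.0581 to 0.13). *Atp5e*, the epsilon subunit beside it, passed in no comparison on the deposited scale or with median of ratios, with means of 556, 599.5 and 574 FPKM. The inhibitor gene *Atpif1* lies outside the naming rule but acts on F1, where its protein stops ATP hydrolysis. Its FPKM was 695, 744 and 708 in the E18.5d hearts, 593, 707 and 663 at P1d, and 426, 427 and 416 at P7d. The 3 P7d hearts lay close together and far below the other 6. The log2 change at P7d was −0.76 ± 0.07 against E18.5d (adjusted p = 3.4e-05) and −0.63 ± 0.07 against P1d (adjusted p = 0.00015). The ratio of *Atpif1* to *Atp5b* was 0.193 ± 0.0147 before birth, 0.133 ± 0.0103 on P1d and 0.120 ± 0.00560 on P7d (SD, n = 3), so most of the difference in this ratio lay before P1d, when *Atp5b* was at its peak.

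Among the 12 genes of the membrane part and the stalk, 1 was higher and 6 lower at P7d against E18.5d, beside 12.5% and 36.9% of all genes, with a median change of −0.18 against −0.17. The 6 were *Atp5mpl*, *Atp5k*, *Atp5j2*, *Atp5md*, *Atp5j* and *Atp5f1*. Scaled by median of ratios, 2 rose and 2 fell, beside 21.3% and 20.9% of all genes, and the median was −0.00 against −0.02. The stalk genes *Atp5h* (subunit d) and *Atp5o* (the cap that ties the stalk to F1) had changes of 0.01 and −0.03 at P7d and neither passed on the deposited scale; the membrane subunit g gene *Atp5l* had −0.15 and did not pass. With median of ratios *Atp5h* had 0.20 and passed, while *Atp5o* and *Atp5l* had 0.15 and 0.03 and did not.

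*Atp5mpl* encodes a small proteolipid of the membrane part. Its FPKM was 1284, 1227 and 1187 in the E18.5d hearts, 1009, 1113 and 1213 at P1d, and 815, 755 and 758 at P7d. The P7d hearts lay below all others, and the 2 earlier stages overlapped. The log2 change at P7d against E18.5d was −0.67 ± 0.08 (adjusted p = 0.000121), and −0.35, still passing, with quantile normalization. *Atp5k*, the e subunit that helps ATP synthase pair into dimers, had 553, 543 and 564 FPKM in the E18.5d hearts, 389, 485 and 456 at P1d, and 430.4, 401.5 and 354 at P7d. Its E18.5d hearts lay above all later ones, and the P1d and P7d hearts overlapped. The log2 change at P7d was −0.49 ± 0.09 (adjusted p = 0.00222), and −0.18 and not passing with quantile normalization. *Atp5md*, a membrane protein also known as DAPIT that is needed for stable ATP synthase, had means of 1165, 1315 and 895 FPKM, and its fall lay between P1d and P7d, where the log2 change was −0.55 ± 0.08 (adjusted p = 0.00073), and −0.20, still passing, with quantile normalization.

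The c ring is encoded by 3 genes with the same mature protein, of which only *Atp5g1* passed at P7d against E18.5d. *Atp5g1* had 1178, 1238 and 1178 FPKM in the E18.5d hearts, 1186, 1403 and 1241 at P1d, and 1454, 1655 and 1341 at P7d. The P7d hearts lay above those of E18.5d and overlapped those of P1d. Its log2 change at P7d against E18.5d was 0.30 ± 0.09 (adjusted p = 0.0205), and the call goes without filter and when E18.5d replicate 1 (adjusted p = 0.0591), E18.5d replicate 3 (0.0563) or P7d replicate 2 (0.0775) is left out. *Atp5g2* had 235, 251 and 248 FPKM at E18.5d, 260.2, 304 and 264 at P1d, and 224, 246 and 210.4 at P7d. *Atp5g3* had 673, 667 and 612 FPKM at E18.5d, 664, 735 and 780.2 at P1d, and 676, 676 and 588 at P7d. Neither of these passed at P7d against E18.5d, with changes of −0.11 ± 0.08 and −0.01 ± 0.08 on the deposited scale and 0.07 and 0.17 with median of ratios. Whether their change differs from that of *Atp5g1* was not tested.

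Within the summed FPKM of the 3 genes, which no rescaling of columns alters, *Atp5g1* held 56.5%, 57.4% and 57.8% in the E18.5d hearts, 56.2%, 57.5% and 54.3% at P1d, and 61.8%, 64.2% and 62.7% at P7d. Its share was higher in each P7d heart than in any earlier heart. The share of *Atp5g2* averaged 11.7% ± 0.435 and 9.64% ± 0.172, and that of *Atp5g3* 31.1% ± 1.13 and 27.5% ± 1.24, at E18.5d and P7d (SD, n = 3). The 3 genes summed to 2093 ± 59.2 FPKM before birth, 2279 ± 166 on P1d and 2357 ± 219 on P7d.

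The coding sequences show how far reads of the 3 genes can be told apart. A run of 78 codons translates to the same residues in all 3, but only 171 of its 234 bases are the same in all of them. *Atp5g1* and *Atp5g2* share 84.6% of these bases, *Atp5g1* and *Atp5g3* 78.6%, and *Atp5g2* and *Atp5g3* 77.4%, and most of the differences (33 of 36, 43 of 50 and 47 of 53) lie at the third codon position. The longest run identical between any pair is 20 bases. The opening 150 bases of the run are shown 5′ to 3′ from GENCODE M21 transcripts, with capitals at the positions where the 3 genes are not all the same (40 of the 150). The genes lie on the minus strand at chr11:96068852-96075670 (*Atp5g1*), chr15:102662864-102672352 (*Atp5g2*) and chr2:73908447-73911326 (*Atp5g3*) of GRCm38, and the bases are from coding exons.
Atp5g1: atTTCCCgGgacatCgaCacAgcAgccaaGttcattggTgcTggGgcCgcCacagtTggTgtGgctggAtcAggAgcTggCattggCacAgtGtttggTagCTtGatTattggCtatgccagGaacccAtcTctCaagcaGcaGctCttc
Atp5g2: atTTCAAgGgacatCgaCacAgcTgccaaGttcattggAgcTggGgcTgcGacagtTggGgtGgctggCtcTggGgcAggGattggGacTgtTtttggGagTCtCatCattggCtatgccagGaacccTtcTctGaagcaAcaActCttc
Atp5g3: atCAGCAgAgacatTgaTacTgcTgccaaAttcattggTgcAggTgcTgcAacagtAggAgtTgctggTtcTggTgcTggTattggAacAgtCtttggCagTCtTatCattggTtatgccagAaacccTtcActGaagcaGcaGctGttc

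**Figure D2:**
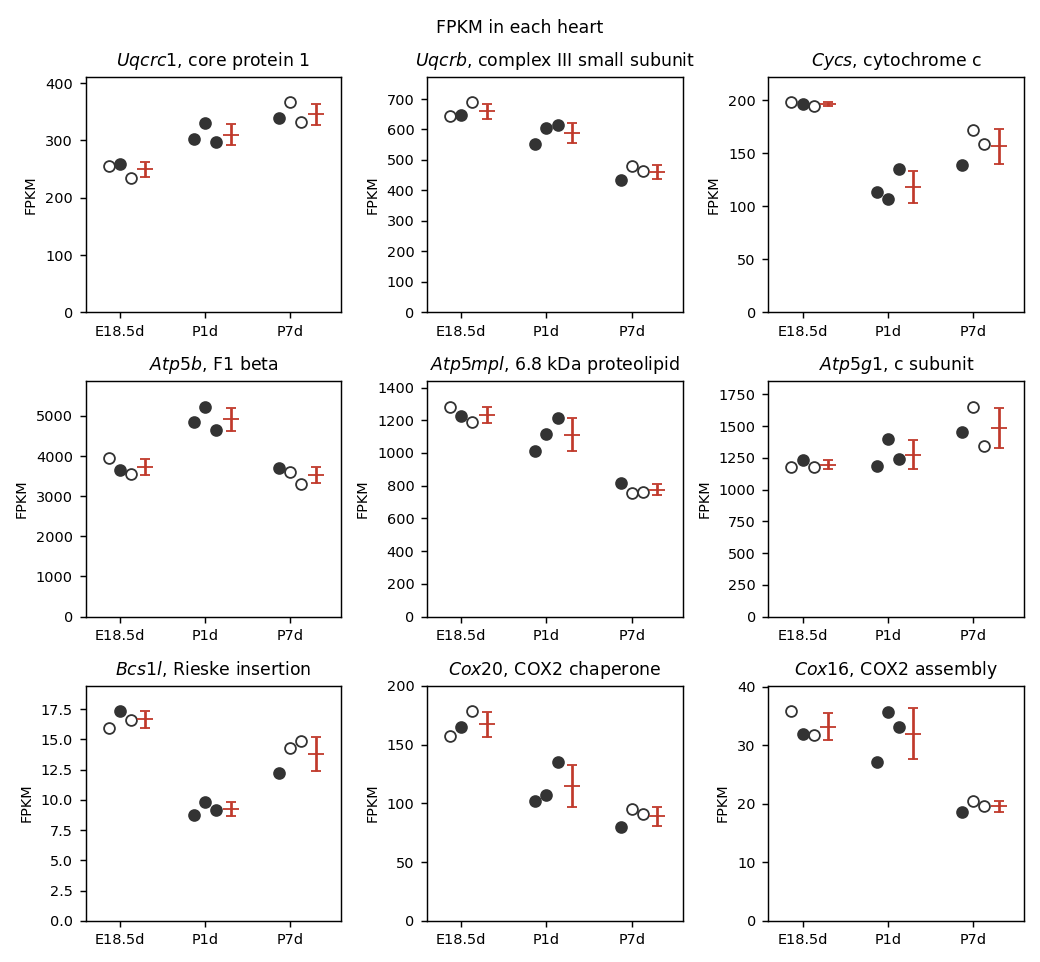
FPKM of 9 members in each heart (vertical axis from 0) by stage; points are the 3 hearts of a stage, open where *Xist* was above 1 FPKM, and red bars give mean ± SD. *Cycs* and *Bcs1l* are lowest at P1d (means of 118 and 9.24 FPKM), *Atp5b* is highest there (4914 FPKM), and *Uqcrb*, *Atp5mpl*, *Cox20* and *Cox16* are lowest at P7d.

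Of the 4 assembly factors of complex III, 2 were lower and 1 higher at P1d against E18.5d on both scales, beside 27.6% and 18.4% of all genes on the deposited scale and 22.9% and 23.2% with median of ratios. *Bcs1l* encodes the ATPase that inserts the Rieske protein as a late step. Its FPKM was 15.97, 17.4 and 16.6 in the E18.5d hearts, 8.75, 9.83 and 9.14 at P1d, and 12.2, 14.3 and 14.8 at P7d. The 3 stages did not overlap, with P1d lowest. Its log2 change was −0.79 ± 0.08 at P1d against E18.5d (adjusted p = 7.44e-05) and 0.53 ± 0.08 at P7d against P1d (adjusted p = 0.000828). The rest of the way was not regained on the deposited scale, −0.26 ± 0.08 at P7d against E18.5d (adjusted p = 0.0246), while with median of ratios it was −0.09 and did not pass. It was lost too without E18.5d replicate 2 or 3 or without the P7d heart numbered 1 (adjusted p from 0.0581 to 0.0876).

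*Uqcc1*, which helps cytochrome b to be made and inserted, had 85.6, 86.2 and 85.0 FPKM in the E18.5d hearts, 69.0, 62.6 and 64.4 at P1d, and 77.3, 85.6 and 75.8 at P7d. Its P1d hearts lay below all others, with a log2 change of −0.39 ± 0.06 (adjusted p = 0.00092) and a rise to P7d of 0.28 ± 0.06 (adjusted p = 0.00576). *Uqcc2*, its partner protein, had means of 147, 124 and 140.1 FPKM and passed in no comparison on the deposited scale or with median of ratios. With equal sums it was lower at P1d (−0.42) and higher at P7d against P1d (0.31), the latter also with protein-coding nuclear sums (0.33). *Uqcc3*, which acts at a later step on cytochrome b, was the higher gene: 24.5, 23.8 and 25.1 FPKM in the E18.5d hearts, 34.0, 37.0 and 30.04 at P1d, and 27.7, 27.0 and 28.53 at P7d. All its P1d hearts lay above all others, with a log2 change of 0.44 ± 0.08 against E18.5d (adjusted p = 0.00127).

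Both assembly factors of F1 had lower means after birth. *Atpaf2*, which binds the alpha subunit, had 27.6, 26.1 and 24.0 FPKM in the E18.5d hearts, 20.8, 20.8 and 17.9 at P1d, and 19.8, 22.2 and 22.7 at P7d. The E18.5d hearts lay above all others. Its change was −0.37 ± 0.08 at P1d (adjusted p = 0.00611) and −0.25 ± 0.08 at P7d (adjusted p = 0.0316), the former lost with the *Xist* covariate, the latter −0.08 and not passing with median of ratios, nor passing with equal sums, and lost without E18.5d replicate 1 or 2 or without the P7d hearts numbered 1 or 2 (adjusted p from 0.0545 to 0.113). *Atpaf1*, which binds the beta subunit, had means of 25.9, 24.0 and 22.2 FPKM and passed in no comparison.

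The cytochrome oxidase assembly genes held the largest falls of all members at P7d against E18.5d. Of these 12 genes *Cox20*, *Cox16* and *Cox17* were called lower and *Cox10* higher on the deposited scale, beside 36.9% and 12.5% of all genes. With median of ratios *Cox15* was also higher, beside 20.9% lower and 21.3% higher of all genes. *Cox20* encodes a chaperone of the mitochondrially made subunit COX2. Its FPKM was 157, 165 and 179 in the E18.5d hearts, 102, 107 and 135 at P1d, and 79.8, 95.3 and 91.2 at P7d. Every heart of a later stage lay below every heart of the stage before. The log2 change was −0.55 ± 0.11 at P1d (adjusted p = 0.00306) and −0.91 ± 0.11 at P7d (adjusted p = 0.000162) against E18.5d. Exons of *Cox20* overlap those of *Hnrnpu*, an RNA-binding protein gene on the other strand with means of 136, 96.9 and 96.0 FPKM. Whether the counting kept the strands apart is not given in the sources used here. Whether reads of the 2 genes in the overlap were told apart is therefore not known. The ratio of *Cox20* to *Hnrnpu* averaged 1.23 ± 0.0215 before birth, 1.19 ± 0.156 on P1d and 0.927 ± 0.112 on P7d (SD, n = 3), with all P7d ratios below those of E18.5d but overlapping those of P1d.

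*Cox16*, also tied to COX2 maturation, fell after P1d. Its FPKM was 35.9, 31.9 and 31.8 in the E18.5d hearts, 27.1, 35.7 and 33.1 at P1d, and 18.5, 20.5 and 19.7 at P7d. The P7d hearts lay below all others and the earlier stages overlapped. Its log2 change was −0.73 ± 0.10 at P7d against E18.5d (adjusted p = 0.000312) and −0.67 ± 0.10 against P1d (adjusted p = 0.000629). *Gm20498*, an annotated gene that overlaps *Cox16* on the same strand, had means of 3.51, 3.10 and 2.19 FPKM.

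*Cox17*, the copper chaperone that feeds *Sco1* and *Cox11*, fell early, from 185, 209 and 181 FPKM at E18.5d to 132, 126 and 161 at P1d, and had 141, 134 and 146 at P7d. The E18.5d hearts lay above all later ones. Its change was −0.46 ± 0.09 at P1d (adjusted p = 0.00351) and −0.44 ± 0.09 at P7d (adjusted p = 0.0038). Without the airway-rich hearts neither call held, and the P7d call was lost with protein-coding nuclear sums (−0.28). Also lower at P1d were *Sco1*, which loads the copper A site, by −0.41 ± 0.10 (adjusted p = 0.0102) and *Cox11*, which loads the copper B site, by −0.43 ± 0.10 (adjusted p = 0.00692), while *Cox19*, another protein of this copper route, had 0.17 and *Sco2*, also of the copper A site, had 0.26, and neither passed. *Cox11*, with a mean of 6.55 FPKM, overlaps *Tom1l1*, a trafficking gene on the other strand at 10.4 FPKM. Whether reads in that overlap were told apart is not known either.

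*Cox10*, which makes haem O for cytochrome oxidase, was the only one of the 18 assembly members higher at P7d on the deposited scale. Its FPKM was 19.9, 18.6 and 18.5 in the E18.5d hearts, 22.9, 19.8 and 21.1 at P1d, and 20.9, 24.4 and 21.4 at P7d. The P7d hearts lay above those of E18.5d by a small margin. Its change was 0.21 ± 0.08 (adjusted p = 0.0456) and passed with median of ratios at 0.38, but it was lost with equal sums (0.17), without filter, without trend, with the replicate block and with the *Xist* covariate. It was lost with any E18.5d heart left out, and also without P1d replicate 3 or the P7d hearts numbered 2 or 3 (adjusted p from 0.0522 to 0.159). *Cox15*, which turns haem O into haem A, passed at P7d only with those same 3 scalings, with means of 12.3 and 13.2 FPKM. *Cox14*, *Cox18*, *Surf1* and *Sco2* passed in no comparison on either scale; *Sco2*, at 0.99 to 3.15 FPKM, overlaps *Ncaph2*, which had a mean of 38.8 FPKM.

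Compared as groups, complex III subunits had the highest median change at P7d among the classes of members on the deposited scale and with median of ratios; with quantile normalization F1 did (0.33 against 0.27). Their median log2 change against E18.5d was 0.05, with 1 of 9 higher and 3 lower (12.5% and 36.9% of all genes), beside a median of −0.01 for the 5 F1 genes, −0.18 for the 12 membrane and stalk genes and −0.17 for all genes tested. With median of ratios 6 of the 9 complex III subunits were higher and 1 lower at P7d (21.3% and 20.9% of all genes), with a median of 0.23. The mean log2(FPKM + 1) of complex III subunits minus that of ATP synthase subunits was −0.72, −0.70 and −0.71 in the E18.5d hearts, −0.64, −0.66 and −0.69 at P1d, and −0.59, −0.58 and −0.60 at P7d. The difference was smaller by 0.12 from E18.5d to P7d, with no overlap between these 2 stages, and no p is given because the score is taken over chosen members. The mean of F1 minus that of the membrane and stalk genes averaged 0.40 ± 0.04 before birth, 0.61 ± 0.06 on P1d and 0.64 ± 0.01 on P7d (SD, n = 3). With quantile normalization these were 0.46, 0.57 and 0.62, and the E18.5d hearts (0.38 to 0.54) overlapped those of P1d (0.49 to 0.61).

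Assembly factors and subunits were furthest apart at P1d on the deposited scale and after each rescaling of columns, but at P7d with quantile normalization. Of the 18 assembly factors 1 was higher and 7 were lower at P1d against E18.5d on either scale, with a deposited median of −0.15. Of the 26 subunits 5 were higher and 3 lower, with a median of 0.06, and by limma with median of ratios 7 and 0 (median 0.13; 9 and 2 at an unadjusted p under 0.05). With equal sums the subunits had 1 higher and 7 lower (median −0.11) and the assembly factors 1 and 8 (median −0.30), beside 8.63% and 34.5% of all genes (median −0.21). Of all genes 18.4% were higher and 27.6% lower on the deposited scale, and 23.2% and 22.9% with median of ratios. The mean log2(FPKM + 1) of assembly factors minus that of subunits was −4.72, −4.64 and −4.66 in the E18.5d hearts, −4.81, −4.89 and −4.90 at P1d, and −4.82, −4.74 and −4.68 at P7d. The P1d hearts lay below those of E18.5d, a difference of −0.20, whereas at P7d (−0.07 against E18.5d) the hearts overlapped with both other stages. Leaving out 1 heart at a time put the P7d difference between −0.11 and −0.04, the latter without P7d replicate 1; quantile normalization gave −0.18 at P7d and −0.13 at P1d. At P7d the assembly factors had 1 higher and 5 lower, and the subunits 3 higher and 9 lower, on the deposited scale, beside 12.5% and 36.9% of all genes.

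For other genes of the same pathways the counts at P7d stand beside 12.5% higher and 36.9% lower of all genes on the deposited scale, and 21.3% and 20.9% with median of ratios; those at P1d stand beside 18.4% and 27.6%, and 23.2% and 22.9%. Of 15 further assembly factors tested, 1 was higher and 6 were lower at P1d (median −0.30) and 1 higher and 7 lower at P7d (median −0.26), which with median of ratios became 1 and 6, and 2 and 3. *Cmc2*, tied to cytochrome oxidase biogenesis, and *Coa6*, a copper factor, fell most at P7d, by 0.60 and 0.52 on the deposited log2 scale. Complex I had 5 of 36 subunits higher and 13 lower at P7d, near the shares of all genes on the deposited scale, but 17 and 5 with median of ratios. On the deposited scale its largest changes were in the accessory subunits *Ndufb4* (−0.58) and *Ndufc2* (−0.49), and complex II had 1 of 4 higher, its flavoprotein gene *Sdha* (0.19), and 2 with median of ratios. Complex IV had 4 of 17 higher and 8 lower, and 5 and 6 with median of ratios; on the deposited scale the largest were falls of *Cox6a1* (−1.07) and *Cox8a* (−0.94), the subunit forms found in most tissues.

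The mitochondrially encoded partners of the members rose where they passed. *mt-Cytb*, cytochrome b of complex III, had 1225, 1378 and 1546 FPKM in the E18.5d hearts, 1629.8, 1462 and 1896 at P1d, and 2391, 2552 and 2488 at P7d. The P7d hearts lay above all others, with a log2 change against E18.5d of 0.85 ± 0.11 (adjusted p = 0.000248). *mt-Co1*, the haem and copper subunit that *Cox10*, *Cox15* and *Cox11* serve, went from 11649.8 ± 637 FPKM at E18.5d to 25541 ± 737 at P7d (SD, n = 3), a log2 change of 1.13 ± 0.10 (adjusted p = 1.95e-05). The ATP synthase genes *mt-Atp6* and *mt-Atp8*, which overlap each other, ranged from 57.1 to 484 and from 6249 to 12616 FPKM over the 9 hearts. They did not pass at P7d against E18.5d on the deposited scale, nor did *mt-Co2* and *mt-Co3*. At P1d *mt-Atp8* had 10906, 8850 and 12616 FPKM, against 6249, 7582 and 7580 at E18.5d, and limma called it higher on the deposited scale. That call was lost without E18.5d replicate 1 (adjusted p = 0.0602) or P1d replicate 3 (0.0538).

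Several measured properties run along with these changes. Members with a median coding transcript under 700 bases, 17 of the 45, had a median log2 change of −0.26 at P7d against E18.5d. The 896 genes of that length tested also had −0.26, while genes of at least 3000 bases had −0.14. The 18 members of 700 to 1500 bases had −0.01, beside −0.18 for the 3018 genes of that length. At P1d against E18.5d the members under 700 bases had 0.04, beside −0.07. Lengths are medians over all annotated coding transcripts of a gene, which put *Uqcrc1* at 533 bases and *Cox17* at 2067. The part of transcript length in the members' changes was not tested. Marker lists moved too: 6 cardiomyocyte genes, with *Tnnt2* most abundant at E18.5d and *Myh6* later, summed to 11840.0 to 11981 FPKM in the E18.5d hearts, 15986 to 17101 at P1d and 16483 to 17178 at P7d. *Myh6* itself went from a mean of 3219.5 to 8318 FPKM between E18.5d and P7d, and *Tnnt2* from 4431 to 3056; of the 6, limma called 4 higher and 1 lower at P7d against E18.5d. Over the same stages 5 endothelial genes (*Pecam1* highest over the 9 hearts) summed to 331 to 367, 409 to 448 and 480.4 to 501 FPKM, though *Kdr* fell from a mean of 62.0 to 48.0 FPKM at P1d, and 5 fibroblast genes (*Col1a2* highest) to 808 to 856, 650.4 to 929 and 1041 to 1071 FPKM. Of the fibroblast genes limma called 1 higher at P7d against E18.5d on the deposited scale and 3 with median of ratios. The deposited means of *Pdgfra* (27.8 and 27.5 FPKM) and *Tcf21* (26.3 and 24.1) at P7d were not above those of E18.5d. Lists of 4 smooth muscle and pericyte genes (*Rgs5* highest) ran from 73.0 to 102 FPKM at E18.5d to 173 to 185 at P7d, where *Rgs5* went from a mean of 34.8 to 103 and *Myh11*, the smooth muscle myosin, from 15.7 to 13.7, and of 4 macrophage genes (*Lyz2* highest) from 25.5 to 33.4 to 39.6 to 44.1. The sum of 5 brown fat genes ran from 51.3 to 54.0 FPKM before birth, 82.1 to 89.1 on P1d and 74.2 to 80.5 on P7d. Between E18.5d and P7d *Cidea* went from a mean of 6.71 to 26.7 and *Ucp1* from 0 to 6.62, while *Ppargc1a*, also a heart gene and the highest, had 29.99 and 30.02, *Prdm16* 16.15 and 14.0, and *Elovl3* under 0.1 FPKM. At P1d the means were 49.1 FPKM for *Ppargc1a*, 22.3 for *Cidea*, 13.8 for *Prdm16* and 0.45 for *Ucp1*. Red cell genes, 6 with *Hbb-b1* highest, ran from 8418 to 24726 FPKM over all hearts, and 4 liver genes (*Alb* highest) from 0.73 to 31.7. The part of these cell types in the members' changes was not tested.

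The promoters of the members, read from RefSeq (GRCm38.p6, 250 bases before to 50 after the start), were at hand for 37 of the 45. The core NRF1 letters GCATGCGC, in either direction, stood in 6 of the 37 (16.2%) beside 3.05% of 27025 genes, all 6 among subunits and cytochrome c. The GABPA letters CCGGAAGT stood in 8 (21.6%, beside 4.31%), 5 of them assembly genes, the YY1 letters AAGATGGCG in 4 (10.8%, beside 1.64%) and the ERR letters TCAAGGTCA in 1 (2.70%, beside 0.466%). A match says only that the letters are present. Windows of 30 bases are shown, with the match in capitals, for *Cycs*, which was lowest at P1d, for *Atp5k* and *Atp5g2*, whose matches run in both directions over each other, and for *Bcs1l*, which shared the course of *Cycs* but holds the GABPA letters. They lie at chr6:50566610-50566639 (minus strand), chr5:108434430-108434459 (minus), chr15:102671070-102671099 (minus) and chr1:74588232-74588261 (plus), upstream of the RefSeq start. GENCODE M21 places some starts elsewhere: there the *Atp5g2* window lies inside the gene and the *Atp5k* window spans the first base of the gene.
Cycs: atgctagctcGCATGCGCgcgcacaaacct
Atp5k: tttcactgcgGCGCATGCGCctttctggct
Atp5g2: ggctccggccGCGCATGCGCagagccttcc
Bcs1l: gtgggtgtggCCGGAAGTagatgcagcagt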

How the data were processed

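RNA-seq values of 9 hearts, 3 each at E18.5d, P1d and P7d, were used. The authors deposited FPKM rounded to 2 decimals, with 1 column per heart; the submitters' processing notes name STAR, GRCm38 and mm10, and the counting tool and annotation are not given in the sources used here. Positions, names and exons were taken from GENCODE M21 of GRCm38. Stages and replicates were taken from the sample titles; the stage label of P7d replicate 2 names the same day with stray characters after it.

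Values were transformed to log2(FPKM + 1), so changes of low genes are understated. The 13618 genes averaging 1 FPKM or more went into limma 3.58.1 (R 4.3.3; lmFit, then contrasts.fit and eBayes with trend), the 3 stages in 1 fit without covariates, with Benjamini-Hochberg adjustment over all genes tested and a threshold of 0.05. Tables and figures were made in Python 3.11.15 with numpy 2.4.6, pandas 2.3.3 and matplotlib 3.10.9. With 3 hearts against 3 an exact permutation test cannot go below 0.1, so none was run.

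Depth was read from steps between low FPKM values of genes of 600 to 1300 bases; 83.7% to 92.5% came out whole within 0.15 of a fragment, against 26.1% to 28.5% at the median of the depths tried. A fragment on 1 kilobase then equals 0.0219 to 0.04 FPKM, depending on the heart.

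The members and lists were chosen with earlier results of these data known. Per-heart values are given for the 2 largest rises and falls past the threshold of each role class at P7d against E18.5d, the c subunit genes, *Cycs*, *Cyc1* and *Atpif1*, and changes for the 2 largest past the threshold of each other list; per-heart values of *Atp5b*, *Atp5c1*, *Uqcc1*, *Uqcc3* and *Cox17*, the ratios, the length classes, the overlapping genes and the promoter windows shown were chosen after their values were seen. Reads shared with pseudogenes could not be separated; the 6 entries named -ps had at most 1.04 FPKM.

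Results were repeated with 0.1 in place of 1 as pseudocount, without the filter, with the filter raised to 5 FPKM, with 3 rescalings of the columns (equal sum, median of ratios, equal sum of protein-coding nuclear genes), after quantile normalization, with the trend of eBayes switched off, on the hearts of the 2 stages alone, with the replicate number as a block, with a covariate for *Xist* above 1 FPKM, on the hearts with *Xist* under 1 FPKM alone, and with each heart left out in turn. Leaving out hearts with over 10 FPKM of airway genes was chosen after seeing the data.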

Additional observations from a re-analysis of the deposited data

How the results depend on the processing

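Of 40 results of named genes, 13 were called under each alternative except the fit to the 5 hearts with *Xist* under 1 FPKM: *Uqcrc1*, *Uqcrb*, *Atp5mpl*, *Cox20*, *Cox16* and *Atpif1* at P7d against E18.5d, *Cycs*, *Bcs1l* and *Uqcc1* at P1d against E18.5d, and *Bcs1l*, *Uqcc1*, *Cox16* and *Atpif1* at P7d against P1d. Over all alternatives 734 of the 880 values of these 40 results kept direction and call, 144 lost the call and 2 turned sign. Both turned with quantile normalization: *Uqcrh* at P7d against E18.5d (0.0113) and *Atp5c1* at P7d against P1d (0.0899). The 40 come from a chosen list of genes, kept only where called on the deposited scale, and do not hold every result named above. The list leaves out *Uqcrc2*, *Uqcr10* and *Atp5d*, whose calls were lost under several alternatives. The share kept therefore holds for these 40 results alone. Outside them, *Uqcr10* at P7d against E18.5d turned sign with quantile normalization, and *Uqcrc2* at P1d against E18.5d with equal sums. The cause was not tested.

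Members called higher at P7d against E18.5d numbered 4 on the deposited scale, 1 without filter, 2 with equal sum, 13 with median of ratios and with equal protein-coding nuclear sums, 16 with quantile normalization, 2 with the *Xist* covariate, 0 in the 5 hearts, 1 without airway-rich hearts, and 1 to 5 with a heart left out. Members called lower numbered 15, then 6, 7 and 5 with median of ratios, protein-coding nuclear sums and quantile normalization, 0 in the 5 hearts, 6 without airway-rich hearts, and 11 to 16 with a heart left out. At P1d against E18.5d, 6 higher became 2 with equal sum, 0 in the 5 hearts and 2 without airway-rich hearts, and 11 lower became 16 with equal sum and 1 and 3 in these last 2 fits. At P7d against P1d, 4 higher became 7 with median of ratios, 12 with protein-coding nuclear sums and with quantile normalization, 0 in the 5 hearts and 2 without airway-rich hearts, and 12 lower became 5 with equal sum, 6 with median of ratios and with protein-coding nuclear sums, 2 with quantile normalization and 0 in the 5 hearts. The counts stand beside shares of all genes that move too. Higher and lower at P7d against E18.5d these were 12.5% and 36.9% on the deposited scale, 6.50% and 19.5% without filter, 9.30% and 32.6% with equal sum, 21.3% and 20.9% with median of ratios, 20.2% and 21.1% with protein-coding nuclear sums, 21.2% and 21.6% with quantile normalization, 12.0% and 35.4% with the *Xist* covariate, 0.68% and 0.74% in the 5 hearts and 7.27% and 16.6% without airway-rich hearts; with a heart left out they ran from 10.35% to 13.53% and from 29.8% to 39.1%. At P1d against E18.5d they were 18.4% and 27.6%, then 8.63% and 34.5% with equal sum, 1.76% and 4.29% in the 5 hearts and 7.48% and 10.7% without airway-rich hearts. At P7d against P1d they were 15.5% and 28.6%, then 16.2% and 12.7% with equal sum, 21.9% and 19.8% with median of ratios, 24.2% and 16.4% with protein-coding nuclear sums, 21.1% and 20.5% with quantile normalization, 0.55% and 0.76% in the 5 hearts and 10.3% and 18.9% without airway-rich hearts. Both the 5 hearts and the fit without airway-rich hearts keep 1 heart at E18.5d, so counts there come with fewer hearts; the cause of the other shifts was not tested.

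With quantile normalization the assembly minus subunit difference was −0.18 at P7d and −0.13 at P1d against E18.5d, the reverse of the order on the deposited scale, and complex III minus ATP synthase was 0.10 at P1d (0.04 on the deposited scale). With the replicate block 3 members were higher and 15 lower at P7d against E18.5d, 6 and 12 at P1d against E18.5d, and 5 and 13 at P7d against P1d, beside 12.5% and 36.4%, 18.3% and 27.1%, and 14.98% and 28.0% of all genes. Same-numbered hearts correlated at −0.05 to 0.11 in their deviations from stage means, and not every heart correlated best with its own number, so the numbers were not used as pairs. The low level of *Sco2* and *Cox18*, with means of 1.92 and 5.16 FPKM, limits what can be seen of them.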
